A study of Mus musculus with 4 samples.

Results

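The genes described here are 45 genes of DNA replication and mitosis, taken as a list of known cell-cycle genes and followed through every non-control probe of the array that carried a RefSeq accession of one of them. All 45 were on the array, by 59 probes, out of 20887 named genes. Of these, 41 passed the filter on dim probes and were tested, beside 13666 named genes and 20593 features in all. Ccne2 (cyclin E2), the mitotic kinases Aurkb and Ttk and the kinetochore gene Cenpf did not pass: Aurkb was well above background in neither genotype on any array, and each of the other three in at most 2 of 4 APPswe/PS1dE9 samples and 1 of 4 WT samples.

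RNA came from cultures of 2 genotypes on a C57BL/6 background: APPswe/PS1dE9, which carries a Swedish-mutant amyloid precursor protein transgene and a presenilin 1 transgene lacking exon 9 as a model of familial Alzheimer's disease, and wild type (WT). In both groups the cells were neural precursors of the embryonic telencephalon at day 13, grown for 5 days as neurospheres with EGF and FGF2 and then plated for 7 days without either factor, so both genotypes were measured after mitogen withdrawal. Each of 4 two-colour arrays held RNA of 1 APPswe/PS1dE9 culture and 1 WT culture, amplified from 100 ng. Cy3 labelled APPswe/PS1dE9 on replicates 1 and 2, and Cy5 labelled it on replicates 3 and 4. The labels call the replicates biological but do not say whether they came from separate embryos or litters, so the spread behind the p-values is that of these arrays and may be technical. All values are log2 ratios of APPswe/PS1dE9 over WT unless a level is named.

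A dividing cell first licenses its replication origins by loading the MCM helicase, copies its DNA in S phase with the help of the sliding clamp PCNA and enzymes that supply nucleotides, and then enters mitosis when cyclin B and CDK1 become active. Spindle kinases, kinesins and centromere proteins separate the chromosomes, and the anaphase-promoting complex ends mitosis by marking cyclin B and other proteins for destruction. Transcripts of the replication genes are known to peak around the G1/S transition, largely under E2F factors, and those of the mitotic genes in G2 and M, largely under the DREAM and MuvB complexes with FOXM1. In cultures of neural precursors these transcripts mark the cells that still divide, since neurons and most astrocytes leave the cell cycle as they differentiate.

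In each channel, 47.5% to 59.6% of 59305 probe spots were well above background, and 0 were saturated. The App probe was at 0.23, 0.27, 0.00060 and -0.030 on replicates 1 to 4; whether it detects the transgene was not examined here. Prnp, whose promoter is known to drive the transgenes of the widely used line of this name, was at 0.59, 0.59, 1.57 and 0.25. On replicate 1 the X-inactivation transcript Xist was well above background only in WT and the Y-linked gene Eif2s3y only in APPswe/PS1dE9, and on replicate 3 both were the other way round. On replicates 2 and 4 Xist was above background in both cultures and Eif2s3y in neither. By these 2 genes, replicates 1 and 3 paired cultures of unlike sex, in opposite directions, and replicates 2 and 4 did not. The Y-linked gene Ddx3y went with Eif2s3y on replicates 1, 3 and 4. On replicate 2 it was above background in both cultures, against Eif2s3y, but was left out there as an outlier and gave no ratio.

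The first comparison asked whether replication and mitosis genes differed between the genotypes over the 4 arrays. Of the 41 tested members, 0 were higher and 0 were lower in APPswe/PS1dE9 cultures (limma, Benjamini-Hochberg over all 20593 features, threshold 0.05). In the same fit 8.26% of all features were higher and 2.28% lower, 1700 and 470 features (1308 and 1308 with median centring in place of loess, and 1655 and 220 with no normalization within arrays). Leaving out replicate 3 gave 517 higher and 29 lower features, and leaving out replicate 4 gave 368 and 4; in both fits 0 members passed. None of the 41 had an unadjusted p under 0.05 either, and their adjusted p ran from 0.267 to 0.981. The fitted ratios lay between -0.22 and 0.26 with a median of -0.020, against 0.012 over all features, and 19 were above and 22 below 0. In bulk RNA, fewer dividing cells and less RNA of these genes per cell cannot be told apart.

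The size of a difference that these arrays leave possible follows from the intervals. The 95% intervals of all 41 members lay within 1.5-fold in either direction, the outermost bounds being 0.698-fold (Ube2c) and 1.495-fold (E2f1). With Feature Extraction's own processed signals the number within 1.5-fold was 31, and on replicates 2 and 4 alone it was 29. The standard errors of the members, with a median of 0.096, were larger than those over all features, with a median of 0.069. The plot of fitted ratios shows every interval crossing 0.

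**Figure D1:**
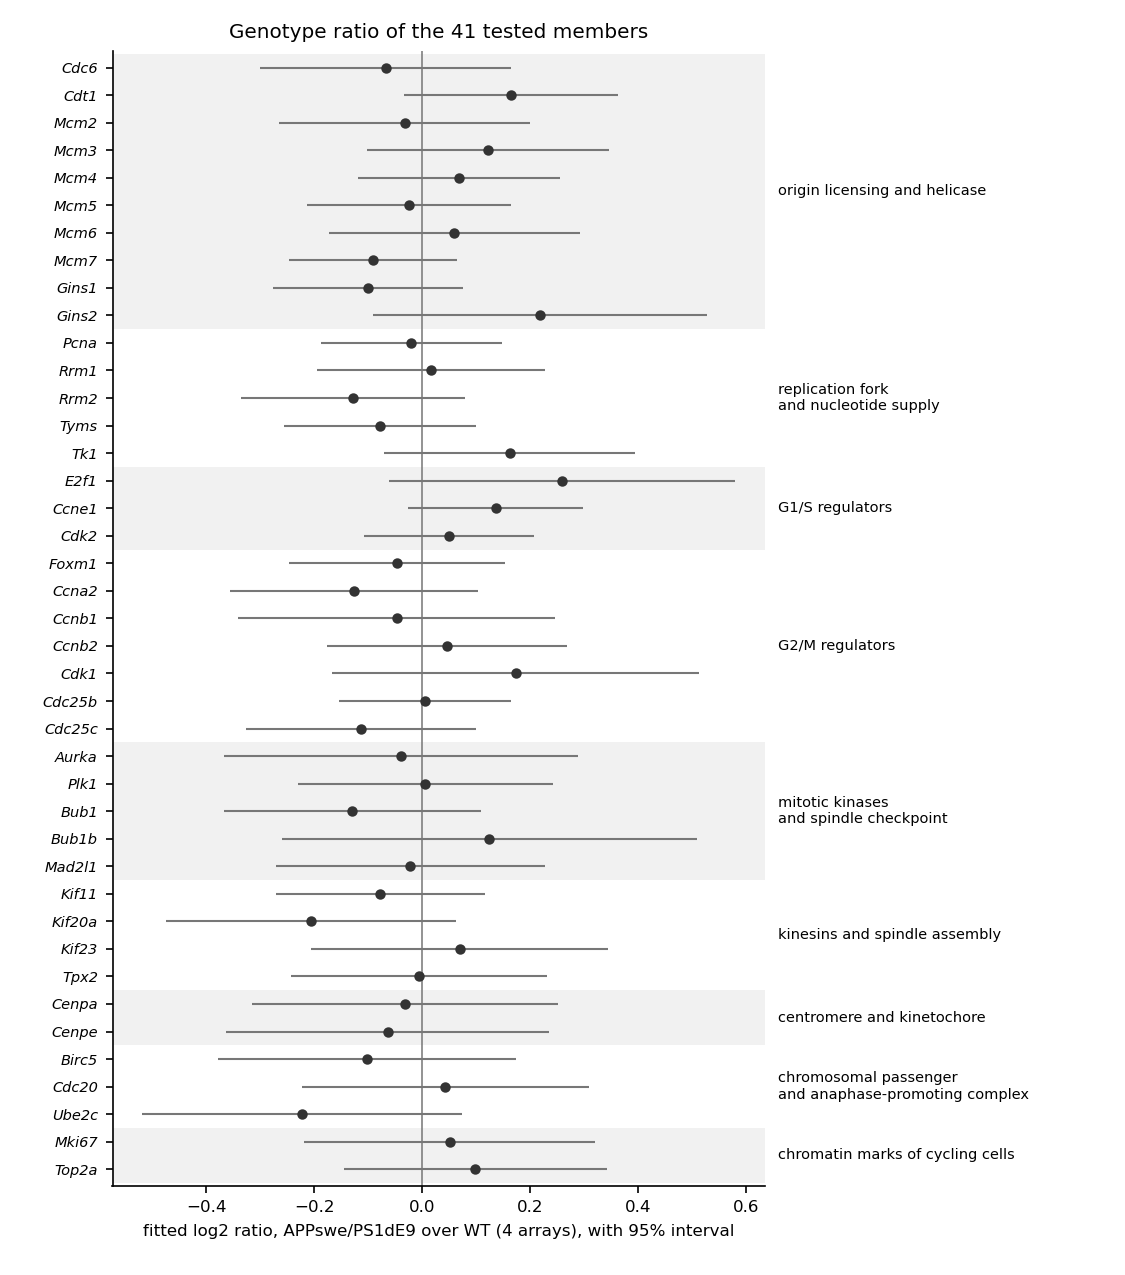
Fitted log2 ratio of APPswe/PS1dE9 over WT (x axis, 4 arrays) for the 41 tested members, grouped by role, with bars for the 95% interval. Every interval includes 0, from Ube2c at -0.22 to E2f1 at 0.26.

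The wide errors came with a shared pattern over the arrays. Only Ccne1 was above 0 on 4 of 4 arrays, where 17.0% of all features were, and 0 members were below 0 on 4 of 4, where 11.7% were. The other 40 took both signs. The range between a member's lowest and highest array had a median of 0.58, against 0.37 over all features, and passed 0.5 in 28 members.

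Array by array, the members stood below WT on replicates 1 and 3 and above WT on replicates 2 and 4. On replicate 1 the median member was at -0.12 and 10 of 41 were above 0 (all features: 49.2%). On replicate 2 it was at 0.079 and 32 were above 0 (47.8%). On replicate 3 it was at -0.13 and 5 were above 0 (55.2%), and on replicate 4 it was at 0.17 and 34 were above 0 (55.0%). The medians over all features were -0.0043, -0.013, 0.031 and 0.025. Without loess the arrays were no longer centred: with median centring the features' medians were -0.51, -0.72, 0.37 and 0.55 and the members' -0.70, -0.67, 0.28 and 0.77, which turned the sign on replicates 2 and 3. Relative to the features of the same array the members were then at -0.20, 0.047, -0.086 and 0.22, against -0.12, 0.092, -0.16 and 0.14 with loess.

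**Figure D2:**
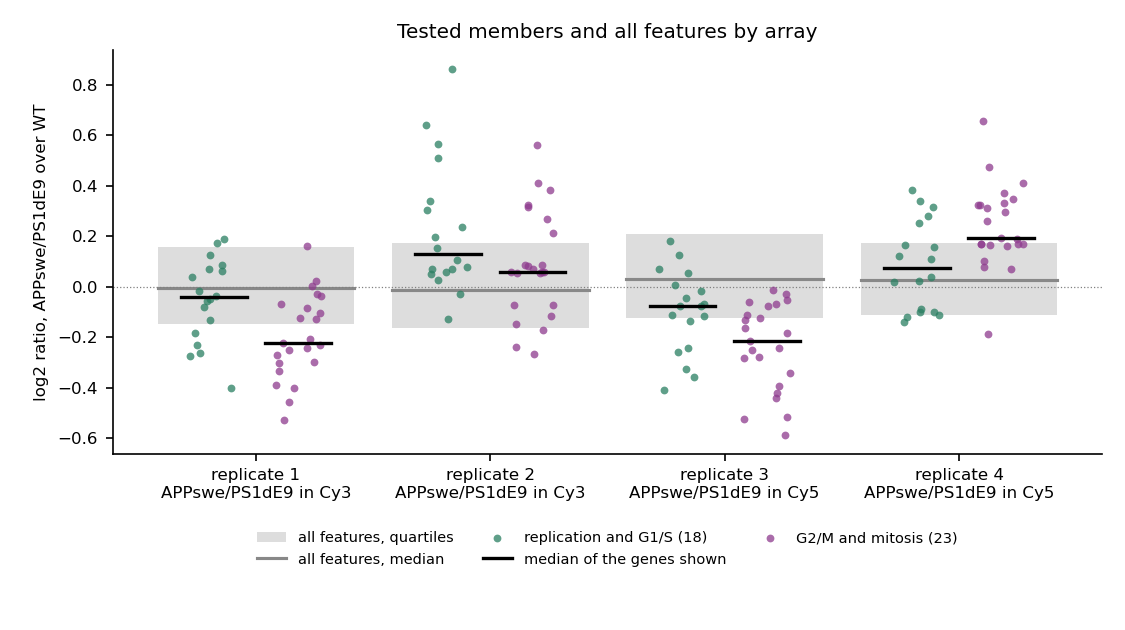
Log2 ratio of APPswe/PS1dE9 over WT (y axis, after loess) on each array for the 18 replication and G1/S genes and the 23 G2/M and mitosis genes, with their medians as black bars and the quartiles and median of all features in grey. The G2/M and mitosis genes had medians of -0.22, 0.059, -0.21 and 0.19 on replicates 1 to 4, and without loess, set relative to all features, the signs were the same except on replicate 2, at -0.0044.

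Arrays of the same dye orientation differ in their cultures but not in their dyes. Between replicates 1 and 2, with APPswe/PS1dE9 in Cy3, the ratio was higher on replicate 2 in 36 of 41 members, against 48.1% of all features, with a median difference of 0.26. Between replicates 3 and 4, with APPswe/PS1dE9 in Cy5, it was higher on replicate 4 in 37 of 41, against 51.5%, with a median difference of 0.36. Both held in 34 of 41 members and in 21.2% of all features. With median centring the counts were 24 of 41 for replicates 1 and 2, where 19.0% of all features were higher on replicate 2, and 38 of 41 for replicates 3 and 4, where 71.4% were higher on replicate 4. The dye term itself passed in 0 members and in 0 of all features with loess, with an unadjusted p under 0.05 in 3 members (7.32%) and in 15.1% of all features. With median centring it passed in 39 members and with no normalization within arrays in 41. It was not counted over all features in these 2 settings, so the counts are not particular to the members. In both, the features' medians were below 0 on replicates 1 and 2 and above 0 on replicates 3 and 4. The higher ratios belong to the arrays whose cultures agreed in Xist and Eif2s3y and the lower ones to the arrays whose cultures did not, and with 2 arrays of each kind the part of this in the pattern was not tested.

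Set out by channel, most members had a lower level in the WT cultures of replicates 2 and 4 than in those of replicates 1 and 3. Levels of each channel after loess and Aquantile, a scaling that makes the brightness of the arrays comparable, were compared between arrays of the same orientation. The WT level was lower on replicate 2 than on replicate 1 in 38 of 41 members (all features: 59.2%), with a median difference of -0.17, against -0.039 over all features. It was lower on replicate 4 than on replicate 3 in 40 of 41 (53.3%), with a median difference of -0.36, against -0.015. The APPswe/PS1dE9 level was lower on replicate 2 in 14 of 41 (59.5%) and on replicate 4 in 18 of 41 (51.3%). Its median differences were 0.099 and 0.0053, against -0.050 and -0.0053 over all features. On replicate 2 it was higher in 27 of 41 members, against 40.5% of all features. In the first pair the members thus stood apart from all features in both channels, and in the second mainly in WT. The exceptions among WT levels were Cdc25b, Cdc25c and Bub1b in the first pair and Tyms in the second. With Feature Extraction's processed signals the WT level was lower in 35 and 40 members. The 2 channels of an array share its brightness, so their levels are not independent of each other.

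**Figure D3:**
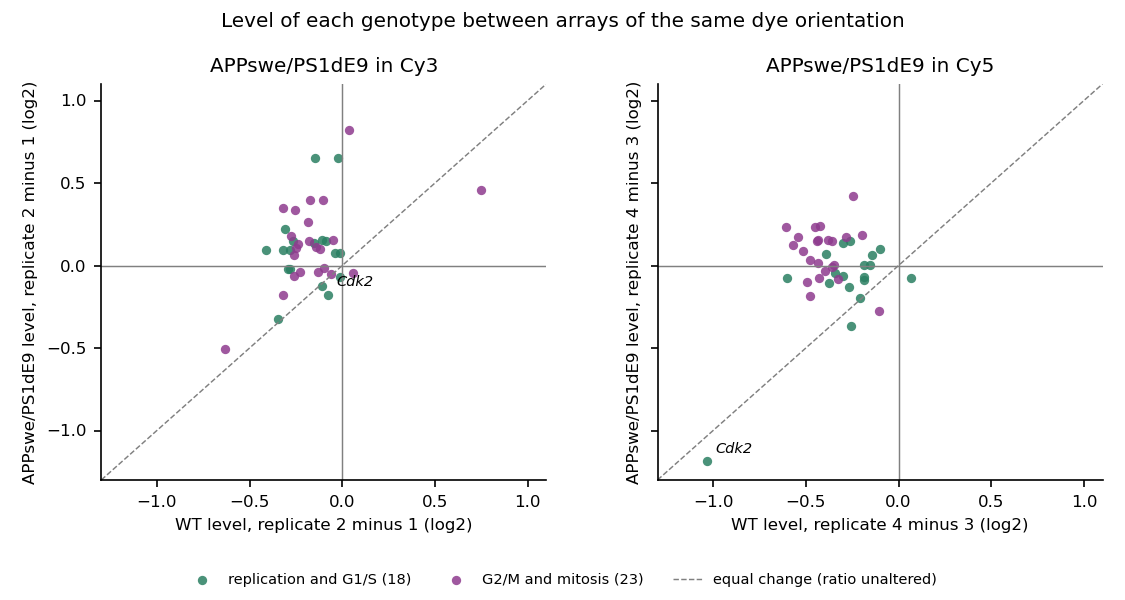
Difference in log2 level of the WT channel (x axis) and of the APPswe/PS1dE9 channel (y axis) between arrays of the same dye orientation, 1 point per tested member, with the dashed line where both change alike. Points lie left of 0 on the x axis in 38 of 41 members on the left and 40 of 41 on the right, while on the y axis they fall on both sides; Cdk2 was brighter on replicate 3 in both channels.

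Levels of some cell type markers in the WT cultures also differed between arrays of the same orientation. Over all features, 53.3% were lower in WT on replicate 4 than on replicate 3 (median difference -0.015). On replicate 2, 59.2% were lower than on replicate 1 (-0.039). A count near these shares does not set a list apart. Between replicates 3 and 4, the WT level on replicate 4 was higher in 7 of 8 immature neuron markers (median difference 0.22) and 6 of 7 fibroblast and mural markers (0.32). It was lower in 10 of 12 neural progenitor markers (-0.12), 6 of 6 oligodendrocyte precursor markers (-0.27) and 5 of 8 astrocyte markers (-0.16), while the microglia and macrophage markers had a median difference of -0.0073. Between replicates 1 and 2, the WT level on replicate 2 was higher in 5 of 8 neuron markers (0.11) and 9 of 9 microglia and macrophage markers (0.12). It was lower in 8 of 12 progenitor (-0.048), 7 of 8 astrocyte (-0.11) and 6 of 7 fibroblast and mural markers (-0.17), and in 3 of 6 oligodendrocyte precursor markers (-0.013). In APPswe/PS1dE9 the largest median differences were those of the fibroblast and mural markers, 0.45 on replicate 2 and 0.36 on replicate 4. Over all features these differences were -0.050 and -0.0053.

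Marker lists differed between the genotypes too, where 8.26% of all features were higher and 2.28% lower (limma, over all features). Of the neuron markers 5 of 8 were lower, of 12 progenitor markers 5 were higher and Hes5 was lower, and of the astrocyte markers 4 of 8 were higher (Gfap at a log2 ratio of 0.69), with all 8 above 0 on each array. Of the fibroblast and mural markers 2 of 7 were lower, Lum (-0.62) and Pdgfrb (-0.45), and 0 of 6 oligodendrocyte precursor markers passed. Of the microglia and macrophage markers 8 of 9 tested were higher, at log2 ratios of 0.95 to 2.31, the list's median being 2.07, and Itgam was at 0.11; Ptprc and Spi1 did not pass the filter. Summed levels, as log2 of the summed signals over the 4 arrays, were 16.23 to 16.34 in APPswe/PS1dE9 and 16.41 to 16.64 in WT for the neuron markers. For the progenitor markers they were 17.14 to 17.22 and 16.76 to 17.15, and for the astrocyte markers 16.87 to 17.06 and 16.44 to 16.75. For the oligodendrocyte precursor markers they were 14.87 to 15.19 and 14.83 to 15.16, and for the fibroblast and mural markers 12.51 to 13.34 and 12.40 to 12.88. The fibroblast and mural sum was mostly Acta2, at 56.2% to 71.7% of it in WT. Without Acta2 this sum was lower in APPswe/PS1dE9, at 10.72 to 11.27, than in WT, at 11.06 to 11.54, with overlapping ranges. The sum over 8 microglia and macrophage markers, 13.49 to 13.91 and 13.05 to 13.37, was mostly Itgam, at 82.0% to 85.6% of it in WT, and without Itgam it was 11.997 to 12.23 and 10.44 to 10.58. The part of these cell types in the members' ratios was not tested.

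Promoter windows of the members were searched for the motifs known from such genes. The windows came from the RefSeq table of assembly GRCm38.p6 and ran from 250 bases before to 50 bases after the start. The table held 36 windows for 35 members. The cell-cycle genes homology region (CHR, TTTGAA on either strand) was in 14 of 20 windows of G2/M and mitosis genes, in 1 of 16 of replication and G1/S genes (Mcm2) and in 17.9% of all 32851 windows. A CCAAT box (CCAAT on either strand) was in 18 of 20, in 10 of 16 and in 37.4% of all windows. An E2F site, searched as TTTCCCGC, TTTCGCGC, TTTGCCGC or TTTGGCGC on either strand, was in 1 of 20 (Cdk1), in 7 of 16 and in 2.26% of all windows. These are matches of letters, not measurements of binding. The members were listed as known cell-cycle genes, so such matches were likely whatever the arrays showed. The part of the motifs in the array pattern was not tested. The 150 bases before the start are given in gene direction for the members with the widest range over the arrays among those with both a CHR and a CCAAT box in that stretch, and for Mcm6, which has the widest range among replication genes with an E2F match there. Capitals mark the matches, and neighbouring ones may run together or overlap, as the first 2 of the 3 E2F matches in Mcm6 do.
Cdk1 (chr10:69352913-69353062, minus strand): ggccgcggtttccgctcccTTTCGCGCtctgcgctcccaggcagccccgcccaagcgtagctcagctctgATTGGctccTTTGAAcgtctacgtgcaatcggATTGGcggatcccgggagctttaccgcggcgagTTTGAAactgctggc
Cdc20 (chr4:118437344-118437493, minus strand): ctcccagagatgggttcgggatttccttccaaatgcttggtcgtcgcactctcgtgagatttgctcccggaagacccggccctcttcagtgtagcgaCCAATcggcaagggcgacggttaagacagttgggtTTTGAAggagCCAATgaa
Ube2c (chr2:164769779-164769928, plus strand): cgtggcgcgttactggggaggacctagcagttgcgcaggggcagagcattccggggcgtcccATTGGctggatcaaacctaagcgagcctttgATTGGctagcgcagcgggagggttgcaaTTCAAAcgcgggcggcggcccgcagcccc
Kif11 (chr19:37376232-37376381, plus strand): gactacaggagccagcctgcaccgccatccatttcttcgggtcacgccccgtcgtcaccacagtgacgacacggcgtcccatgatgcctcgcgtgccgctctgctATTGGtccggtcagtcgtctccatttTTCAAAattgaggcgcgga
Mcm6 (chr1:128359706-128359855, minus strand): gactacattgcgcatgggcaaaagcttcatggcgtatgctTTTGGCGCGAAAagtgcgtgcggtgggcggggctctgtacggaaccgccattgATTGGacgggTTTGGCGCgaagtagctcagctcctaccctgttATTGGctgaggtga

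The licensing and helicase genes had no member past the threshold, with fitted ratios of -0.10 to 0.22 in 10 tested. Of the 10, 9 were above 0 on replicate 2 but 2 on replicate 1 and 2 on replicate 3. Mcm6, a helicase subunit whose promoter is shown above, was at -0.017, 0.51, -0.13 and -0.12 on replicates 1 to 4, so that only replicate 2 stood above WT. Gins2, a subunit of the GINS complex that activates the helicase, was at -0.035, 0.64, -0.068 and 0.34, with a fitted ratio of 0.22 ± 0.13 (SE, n = 4 arrays; adjusted p = 0.344, limma). Without replicate 1 it was at 0.39, with replicate 2 as the only array left with APPswe/PS1dE9 in Cy3. Cdt1, which loads the helicase onto origins, was at 0.19, 0.56, 0.0076 and -0.10, with a fitted ratio of 0.16 ± 0.081 (adjusted p = 0.272). Its higher values lay in the arrays with APPswe/PS1dE9 in Cy3. Cdc6, which loads the helicase with Cdt1, was dim, being well above background in 3 APPswe/PS1dE9 and 2 WT samples.

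Of the fork and nucleotide-supply genes, none of 5 passed. Pcna, the sliding clamp of the replication fork, had one of the narrowest ranges of all members, at -0.13, 0.11, -0.075 and 0.021, with a fitted ratio of -0.020 ± 0.069 (adjusted p = 0.888). Its WT log2 levels were 13.05, 12.97, 13.08 and 12.89 and its APPswe/PS1dE9 levels 12.92, 13.07, 13.00 and 12.92. Rrm2, the small subunit of ribonucleotide reductase, was at -0.26, 0.15, -0.26 and -0.14, with 3 of 4 arrays below WT and a fitted ratio of -0.13 ± 0.085 (adjusted p = 0.408). Its large subunit Rrm1 was at 0.086, 0.20, -0.32 and 0.11. Tk1, the thymidine kinase that salvages thymidine for replication, was at 0.038, 0.30, -0.075 and 0.38, with a fitted ratio of 0.16 ± 0.096 (adjusted p = 0.351). Tyms, which makes thymidylate, went against the common pattern in the Cy5 pair, at 0.18 on replicate 3 and 0.037 on replicate 4.

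The G1/S regulators held the highest and the most even ratio of the list. E2f1, a transcription factor that drives entry into S phase, was at 0.062, 0.86, -0.046 and 0.16, with a fitted ratio of 0.26 ± 0.13 (adjusted p = 0.285). The value on replicate 2 stood far above the others. Without replicate 1 the fitted ratio was 0.46, and replicate 2 was then the only array with APPswe/PS1dE9 in Cy3. The dye term fits such a lone array exactly, so the error of that fit does not hold its spread. Ccne1, cyclin E1, which activates CDK2 at the G1/S transition, was at 0.13, 0.069, 0.070 and 0.28, above WT on every array and with the narrowest range of the 41, 0.21. Its fitted ratio of 0.14 ± 0.067 gave the smallest adjusted p of the list, 0.267. Cdk2 itself was at 0.17, 0.071, 0.055 and -0.10.

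Among the G2/M regulators, none of 7 passed, and 0 of 7 were above 0 on replicate 3 against 6 of 7 on replicate 4. Ccnb1, cyclin B1, had the widest range of the list, at 0.0011, 0.32, -0.59 and 0.077, with a fitted ratio of -0.047 ± 0.12 (adjusted p = 0.844). With this brightest probe replicate 3 alone was clearly below WT. A further kept probe of Ccnb1 was at 0.22, 0.71, -0.20 and 0.32. The last was at -0.26, -0.11, -0.27 and 0.15, with replicate 1 about as low as replicate 3. Cdk1, the kinase that cyclin B1 activates, was at -0.25, 0.32, -0.028 and 0.66, with a fitted ratio of 0.17 ± 0.14 (adjusted p = 0.497). Its WT log2 levels were 9.96, 9.79, 9.70 and 9.25 and its APPswe/PS1dE9 levels 9.71, 10.10, 9.67 and 9.91, so that replicate 4 had a lower WT level and a higher APPswe/PS1dE9 level than replicate 3, in the same dyes. Ccna2, cyclin A2, was at -0.53, -0.071, -0.078 and 0.17, with a fitted ratio of -0.13 ± 0.094 (adjusted p = 0.461). The phosphatase Cdc25c, which activates CDK1, was at 0.023, -0.27, -0.28 and 0.072 and was well above background in 3 of 4 WT samples. The related Cdc25b ran against the others, at 0.16, 0.058, -0.014 and -0.19.

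The mitotic kinases and checkpoint genes were below WT in 5 of 5 on replicates 1 and 3 and above WT in 5 of 5 on replicate 4, and none of 5 passed. Aurka, a kinase of the spindle poles, was at -0.028, 0.056, -0.51 and 0.33, with a fitted ratio of -0.039 ± 0.13 (adjusted p = 0.888). Its WT log2 level was 10.33 on replicate 3 and 9.72 on replicate 4, while its APPswe/PS1dE9 level was 9.82 and 10.05. Bub1b, the checkpoint protein BubR1, was at -0.22, 0.56, -0.25 and 0.41, with a fitted ratio of 0.12 ± 0.16 (adjusted p = 0.675). The arrays fell into a low and a high pair with no value between. Bub1, the checkpoint kinase, was at -0.27, -0.073, -0.34 and 0.17, with a fitted ratio of -0.13 ± 0.098 (adjusted p = 0.469). Plk1, a kinase of mitotic entry and exit, was at -0.30, 0.071, -0.067 and 0.32.

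Of the kinesins and the spindle assembly factor Tpx2, 4 of 4 were below WT on replicates 1 and 3 and 4 of 4 above WT on replicate 4, and none passed. Kif20a, a kinesin of the central spindle and cytokinesis, was at -0.40, -0.15, -0.44 and 0.17, with a fitted ratio of -0.21 ± 0.11 (adjusted p = 0.308). Kif11, the motor that pushes spindle poles apart and whose promoter is printed above, was at -0.33, -0.24, -0.051 and 0.31. The centromere genes Cenpa, the centromeric histone, and Cenpe, a kinetochore kinesin, had fitted ratios of -0.031 and -0.064, and both were above WT on replicates 2 and 4 and below it on replicates 1 and 3.

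The genes of the chromosomal passenger and anaphase-promoting complexes held the lowest ratio. Ube2c, the ubiquitin-conjugating enzyme of the anaphase-promoting complex, was at -0.39, -0.17, -0.52 and 0.19, with a fitted ratio of -0.22 ± 0.12 (adjusted p = 0.316). Replicate 4 alone was above WT, and with median centring the fitted ratio was -0.34 with an adjusted p of 0.0322. Cdc20, which activates the same complex, was at -0.30, 0.059, -0.062 and 0.47, with a fitted ratio of 0.043 ± 0.11 (adjusted p = 0.841). Birc5, the passenger protein survivin, was at -0.24, 0.087, -0.42 and 0.17.

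The 2 genes most used to mark cycling cells did not pass. Mki67, which encodes the Ki-67 protein that coats mitotic chromosomes, was at -0.21, 0.38, -0.13 and 0.16, with a fitted ratio of 0.052 ± 0.11 (adjusted p = 0.812), a 1.04-fold difference. Its WT log2 levels were 11.31, 11.06, 11.70 and 11.22, and its APPswe/PS1dE9 levels 11.11, 11.44, 11.57 and 11.38. Top2a, the topoisomerase that untangles sister chromosomes, was at -0.038, 0.41, -0.16 and 0.19, with a fitted ratio of 0.099 ± 0.10 (adjusted p = 0.591). By these probes both genes were above WT on replicates 2 and 4 and below it on replicates 1 and 3. The other kept probe of Mki67 was at -0.23, 0.35, 0.070 and 0.33 on replicates 1 to 4, so above WT on replicate 3.

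**Figure D4:**
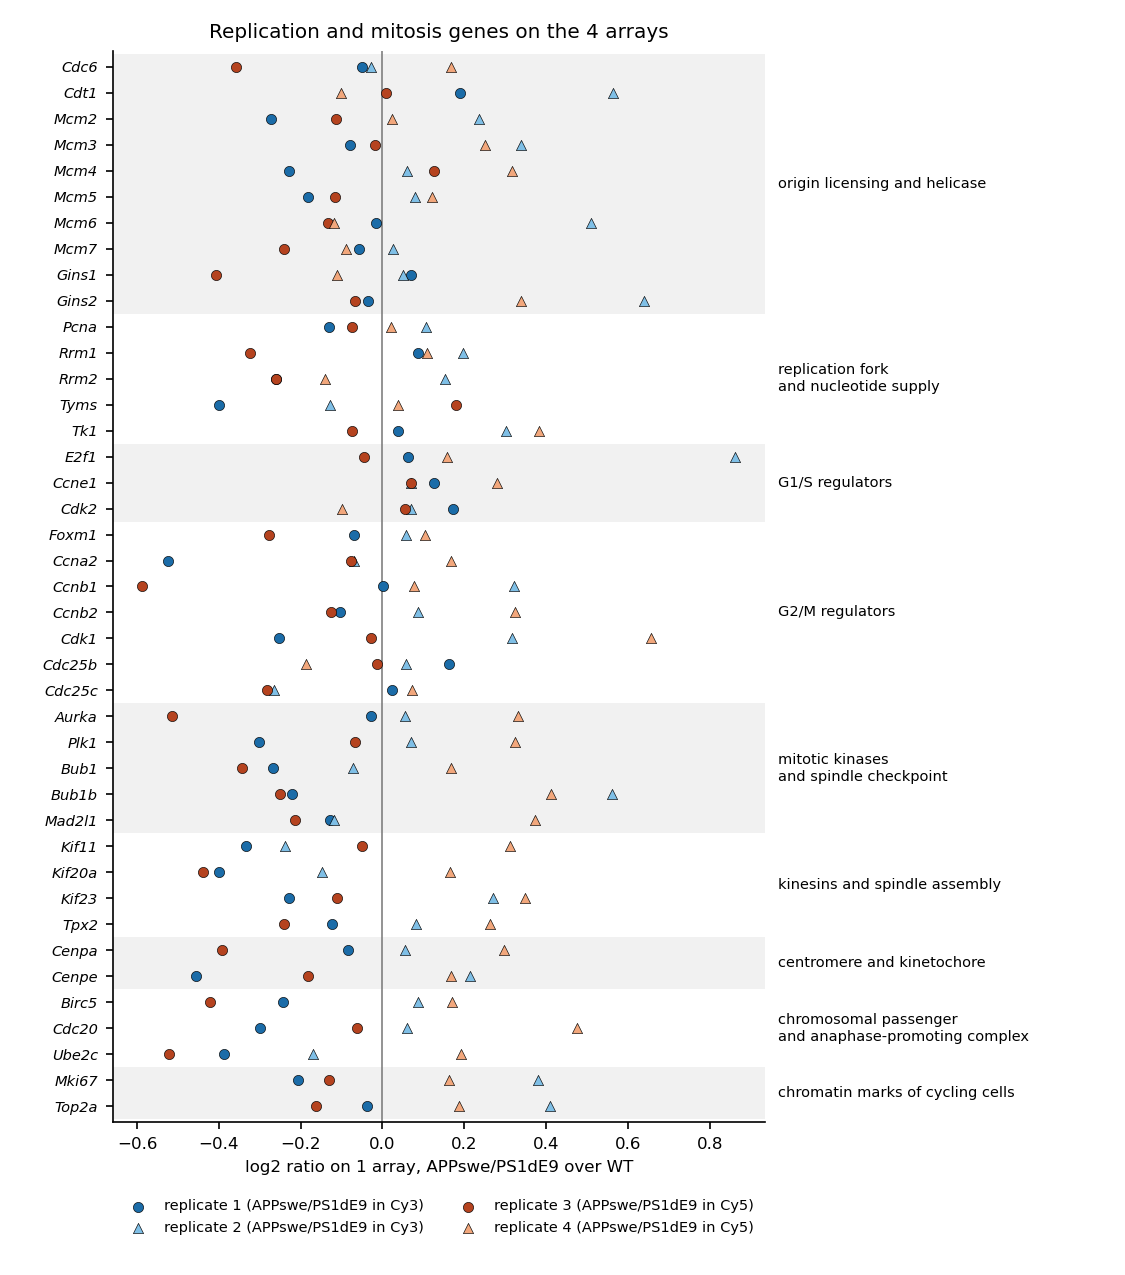
Log2 ratio of APPswe/PS1dE9 over WT on each array (x axis, after loess) for the 41 tested members by role, with 1 symbol per array, circles for replicates 1 and 3 and triangles for replicates 2 and 4. In the 23 G2/M and mitosis genes the circles lie to the left of the triangle of the same dye in 21 members for Cy3 and 22 for Cy5; with median centring in place of loess this was 14 and 22.

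Probes of 1 gene could be compared in 8 members. In 5 of them all kept probes had a fitted ratio of 1 sign. In Ccnb1 the other 2 probes were at 0.26 and -0.12 beside -0.047, in Mad2l1 they were at 0.10 and -0.039 beside -0.022, and in Cdk1 the other kept probe was at -0.016 beside 0.17. No probe of a member passed, and the smallest adjusted p over all probes of members was 0.242 (limma).

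Other genes of the pathway gave 1 call each in the lists of replication and of mitosis genes, where 8.26% of all features were higher and 2.28% lower. Of 43 other replication genes tested, 0 were higher and 1 was lower, Orc4, a subunit of the origin recognition complex, at -0.16, -0.13, -0.33 and -0.40 on replicates 1 to 4 and a fitted ratio of -0.26 ± 0.060 (adjusted p = 0.0475). Orc4 passed in 5 of 16 alternative settings, in none of the fits that left out 1 replicate, and was at -0.027 as the mean over its probes. Of 58 other mitosis genes, 1 was higher, Pttg1, which encodes the separase inhibitor securin, at 0.40, 0.33, 0.55 and 0.82 on replicates 1 to 4 and a fitted ratio of 0.53 ± 0.071 (adjusted p = 0.00808), and 0 were lower. This list had 5 calls without replicate 1, 4 without replicate 2 and 0 without replicate 4, and that of other replication genes had 2 without replicate 1. In those fits 2242 features were higher and 513 lower without replicate 1, 1739 and 325 without replicate 2, and 368 and 4 without replicate 4. Pttg1 passed in 12 of 16 alternative settings, and without replicate 4 its adjusted p was 0.079. Of 17 E2F, RB and DREAM regulators 0 passed in either direction. Median fitted ratios were -0.000090, 0.014 and -0.00099 in these lists, against 0.012 over all features. The array pattern was present in them as well: the ratio was higher on replicate 2 than on replicate 1 in 53 of 58 other mitosis genes and 31 of 43 other replication genes, and higher on replicate 4 than on replicate 3 in 53 and 34.

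Of the D-type cyclins, their kinases and the CDK inhibitors, which act upstream of these genes, 4 of 11 tested were higher in APPswe/PS1dE9, 1 was lower and 6 did not pass, beside 8.26% and 2.28% of all features. Those that did not pass were Ccnd2, Ccnd3, Cdk4, Cdkn1b, Cdkn2c and Cdkn2d. Cdkn2b, an inhibitor of CDK4 and CDK6, was at 1.01, 0.96, 0.95 and 1.39 on replicates 1 to 4, with a fitted ratio of 1.08 ± 0.087 (adjusted p = 0.00127). Cdkn2a, from the neighbouring inhibitor locus, was at 0.85, 0.56, 0.24 and 0.95 (0.65 ± 0.12, adjusted p = 0.0255). The p53 target Cdkn1a was at 0.50, 0.76, 0.65 and 0.64 (0.64 ± 0.070, adjusted p = 0.00380), and the cyclin Ccnd1 at 0.38, 0.91, 0.62 and 1.16 (0.77 ± 0.12, adjusted p = 0.0147). Each of these 4 was above WT on every array. Cdkn1c was below WT on every array, at -0.48, -0.18, -0.26 and -0.38 (-0.32 ± 0.075, adjusted p = 0.0463). Cdkn2b passed in 16 of 16 alternative settings, Cdkn1a in 14, Ccnd1 and Cdkn2a in 11 and Cdkn1c in 6. With processed signals, the authors' value table, no filter on dim probes or without replicate 3, 2 of the list passed, and without replicate 4 only Cdkn2b.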

How the data were processed

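Per the file headers, 1 slide with 1 scan held all 4 arrays, Feature Extraction 11.0.1.1 read them, and the annotation uses mm9. The authors deposited median spot and background intensity values for both channels, not normalized, and processed intensity values with their log10 ratio. In the deposited value table (29350 spots) the log2 values state no scale or direction. Set against the scanner files they were uncentred log2 ratios of the processed signals, turned to APPswe/PS1dE9 over WT (slopes -1.00, -1.00, 1.00 and 1.00), with column medians of -0.0797, -0.155, -0.0373 and -0.0378.

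Here the median intensities were corrected by normexp (offset 50) and normalized by loess within each array in limma 3.58.1 (R 4.3.3), with control and outlier spots at weight 0. The offset draws ratios of dim spots towards 0. Outlier spots were left out and spots of a probe averaged. Probes well above background in APPswe/PS1dE9 or in WT on 3 or more arrays were kept (26917 of 55681), and the brightest kept probe stood for a gene. By accession, 27509 probes matched 20887 symbols of a RefSeq table (GRCm38.p6, used for names and promoter windows alone). lmFit and eBayes were fitted with a genotype coefficient and a dye term (2 residual and 4.13 prior degrees of freedom), two-sided, with Benjamini-Hochberg adjustment over 20593 features. SE leaves out differences between the dye orientations, which go into the dye term. The fit was tested on simulated data with noise drawn independently for each array, so that test does not cover a pattern shared between arrays or genes. Over features, ratios of arrays with the same orientation had Spearman correlations of 0.55 and 0.49, and the others 0.11 to 0.265. Precision is limited by the number of arrays, 4.

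The members and the gene lists were chosen with earlier results of these data known. Values on each array are given for Mki67, Top2a, Pcna, Ccnb1, Cdk1, the 6 highest and 6 lowest fitted ratios, the 6 widest ranges, members whose probes differ in sign, and, of the other cell-cycle lists, genes past the threshold. Other members are named as examples chosen after their values were seen. Levels by channel were added after seeing the data.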

Additional observations from a re-analysis of the deposited data

Results flagged for a closer look

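One of the 41 tested members had an array that stood apart from the other 3 by the gap to its nearest neighbour relative to the whole range (Dixon's criterion for 4 values, which chance meets in about 1 in 20 groups). Mad2l1, a spindle checkpoint gene, was at 0.37 on replicate 4 and at -0.13, -0.12 and -0.21 on replicates 1 to 3. Its other 2 probes were at 0.068 and 0.015 on replicate 4, and the former was at 0.70 on replicate 2, so the probes of this gene did not place the high value on the same array.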

How the results depend on the processing

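Each array sets 1 culture of either genotype against the other, so the fit of ratios used this pairing and a replicate number marks a single ratio. Over 16 alternative settings, 654 fitted ratios of members gave 3 calls, 88 changes of sign without a call and no reversal of a call. The calls were Ube2c with median centring and Gins2 and E2f1 without replicate 1. Each fit without 1 replicate keeps a single array in 1 dye orientation. The dye term fits that array exactly, so its spread does not enter the p-values. The count of members lower was 1 with median centring and 0 otherwise; the count higher ran from 0 to 2 over the fits without 1 replicate, that of members whose dye term passed from 0 to 1, other replication genes from 0 to 2, other mitosis genes from 0 to 5, and D-type cyclins and CDK inhibitors from 1 to 6. All features ran from 368 to 2242 higher and from 4 to 513 lower in those fits. With processed signals they were 719 and 240 (720 and 234 in the authors' deposited table), with 2 calls in other replication genes and 2 in D-type cyclins and CDK inhibitors. Lower features were 298 with no background correction, 1308 with median centring, 220 with no normalization and 259 with no dye term, and with no filter 960 were higher and 103 lower, with 2 calls in D-type cyclins and CDK inhibitors. Other replication genes had 0 calls with no background correction, offset 10, no normalization, no filter, the mean over probes, no dye term or on replicates 2 and 4 alone, and 3 with median centring. Other mitosis genes had 2 calls with median centring, 3 with no normalization and 0 on replicates 2 and 4 alone, and E2F, RB and DREAM regulators had 1 with median centring. On replicates 2 and 4 alone the members' median was 0.17, with 0 calls, and 470 features were higher and 11 lower, with 3 calls in D-type cyclins and CDK inhibitors. Median centring put the dye term past the threshold in 39 members and no normalization in 41, with no count made over all features. The members' medians by array were -0.70, -0.67, 0.28 and 0.77 with median centring and -0.99, -0.96, 0.72 and 1.34 with no normalization, where the features' medians were -0.79, -1.01, 0.81 and 1.12. Medians by array have no value without a replicate. The cause of these changes was not tested. Signals near background limit Cdc6 and Cdc25c and leave Ccne2, Aurkb, Ttk and Cenpf without a test.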
